A study of Homo sapiens with 5 samples.

Results

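The genes described here are the 4 tropomyosin genes TPM1, TPM2, TPM3 and TPM4 and 6 genes that encode chains of non-muscle myosin II: the light chains MYL6, MYL9, MYL12A and MYL12B and the heavy chains MYH9 and MYH10. They were taken by gene symbol from the 27189 genes listed for each library, and all 10 were present in all 5 libraries. That rule uses no measured value, but the members were chosen with earlier results of these data known. All 10 passed the filters on low values, a TPM of 1 or more in any library and a mean of 20 or more reads over the 5 libraries. TPM is transcript abundance corrected for transcript length and for the library total.

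Non-muscle myosin II is the motor that pulls actin filaments past each other and so tenses stress fibres, retracts the rear of a migrating cell and closes the cleavage furrow. Each motor holds a pair of heavy chains, which carry the ATPase, a pair of essential light chains that stiffen the neck, and a pair of regulatory light chains. Phosphorylation of the regulatory light chains by myosin light chain kinase or ROCK switches the motor on. Tropomyosins are coiled coils that lie along the actin filament and determine which myosins and other proteins can bind it. In fibroblasts and sarcoma cells they coat stress fibres and the contractile cortex.

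The cells were HT1080, an established human fibrosarcoma line, at passages 15 to 18, and had been held for 24 h in rat-tail collagen I at 2 mg per ml in every condition. LD was seeded at 10 cells per cubic mm with no cytokine added. The IL-6 and IL-8 libraries had the same density plus recombinant IL-6 or recombinant IL-8, at doses that the labels do not state. RM had that density plus both cytokines, in a ratio of 5 to 2, and HD was seeded at 50 cells per cubic mm with no cytokine added. The study compared these states to ask how cell density and the 2 cytokines alter cells that migrate in a matrix. The cDNA was primed on poly-A and the whole cDNA pool was amplified before library preparation.

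Each condition is 1 library. No difference below can therefore be set against a spread between replicates, no test was made, and each interval is a 95% interval for the counting of reads only, which does not cover the amplification. Counted reads ranged from 5096134 to 7118545 in the 4 low-density libraries and were 926376 in HD. The ribosomal RNA entry RNA5-8S5 took 76.9% to 79.6% of the reads at low density and 51.5% in HD, which left 1100967 to 1645539 reads on other genes at low density and 449661 in HD. HD had at least 1 read on 20113 genes, against 13469 to 15080 genes in the other libraries. Of 8 markers of mesenchymal cells, at least 7 had reads in every library, and THY1 was at 0 under IL-6, IL-8 and RM. Their summed TPM was 7332 to 9858 at low density and 2789 in HD. The sample labels also call the source epithelial. Of 5 epithelial markers listed in the files, 1 or 2 had reads in each low-density library and 4 in HD, and their summed TPM was 2.30 to 27.6 at low density and 57.0 in HD. EPCAM was at 0 in all 4 low-density libraries and had 3 reads in HD, CDH1 had 0 to 6 reads at low density and 34 in HD, and KRT19 had 132 reads in LD and 6 to 35 elsewhere. HD stood apart by reads on genes of other tissues. A list of 9 skeletal and heart muscle markers had 7 with reads in HD and 1 to 3 in each low-density library, with a summed TPM of 122 against 0.879 to 4.79, and MYL2 and MYLPF at 0 in HD. A list of 4 leukocyte markers summed to 207 TPM in HD and to 1.12 to 4.27 TPM elsewhere. The part of these reads in the HD values below was not tested.

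The 3 regulatory light chain genes encode nearly the same switch, which is shown because their reads are compared below. These stretches of 60 coding bases, from GENCODE 29 transcripts of GRCh38, run 5′ to 3′, and the capitals mark the threonine and serine codons that myosin light chain kinase and ROCK phosphorylate. These are codons 19 and 20 of MYL9 and of MYL12B and codons 18 and 19 of MYL12A, counted from the start codon.
MYL9: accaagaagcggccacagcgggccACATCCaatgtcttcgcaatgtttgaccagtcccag
MYL12A: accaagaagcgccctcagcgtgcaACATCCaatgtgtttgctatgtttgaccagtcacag
MYL12B: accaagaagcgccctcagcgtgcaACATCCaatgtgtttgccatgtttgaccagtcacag

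MYL9 lies on chromosome 20, and MYL12A and MYL12B lie on chromosome 18. The stretches of MYL12A and MYL12B differed at 1 base, and that of MYL9 differed from either at 8. Over the coding sequence, MYL12A and MYL12B were identical at 92.8% of 516 bases and differed at 8 of 171 amino acids. Of the 467 coding windows of 50 bases, the length of the reads, 74 were the same in both genes. MYL9 shared no such window with either, at 76.4% identity with MYL12A and 80.5% with MYL12B. A read of 50 bases without mismatch in the coding sequence could thus always tell MYL9 from the other pair, while some reads could not be assigned between MYL12A and MYL12B by sequence alone.

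Summed over the 10 genes, reads made up 1.09% of all those outside RNA5-8S5 in LD (exact binomial interval 1.07 to 1.10%), 0.917% under IL-6 (0.899 to 0.935%), 1.00% under IL-8 (0.983 to 1.02%), 1.02% in RM (1.01 to 1.04%) and 0.184% for HD (0.172 to 0.197%). The HD share lay far below the others, and the 4 low-density shares lay close together. The summed TPM of the 10 genes was 6698 in LD, 5553 under IL-6, 6154 under IL-8, 7095 in RM and 2434 for HD. RM was thus the highest library by TPM and LD the highest by share of reads. In bulk RNA such as this, fewer cells of a kind and less RNA per cell cannot be told apart.

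**Figure D1:**
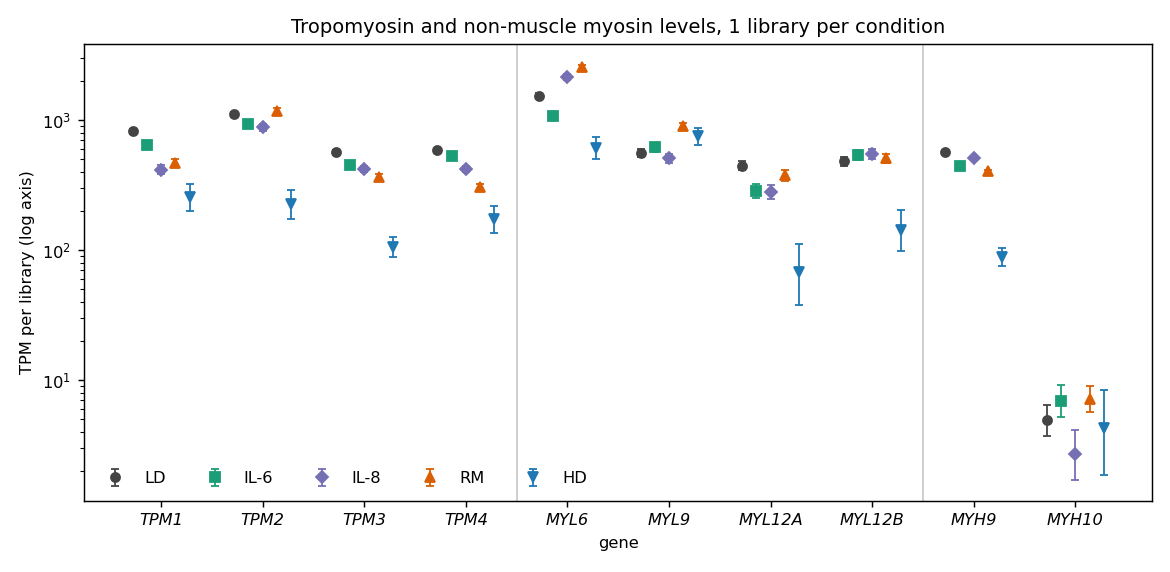
TPM of each of the 10 genes (log axis) in the 5 libraries, 1 point per library, with 95% Poisson counting intervals. Apart from MYH10, every gene lies between 280 and 2574 TPM in the 4 low-density libraries, and in 8 of the 10 the HD point is the lowest by a wide margin.

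The tropomyosins come first, since they decide which filaments the motor can use. TPM2, on chromosome 9, encodes beta-tropomyosin of muscle and stress fibres. Its level was 1112 TPM in LD (Poisson interval 1061 to 1165), 942 under IL-6, 887 under IL-8, 1179 in RM (1125 to 1234) and 229 for HD (175 to 293). RM and LD were the 2 highest libraries and their intervals overlapped, and HD was far below. The ratio of RM to LD was 1.06 (0.992 to 1.13), a log2 difference of 0.08 that became -0.01 under quantile scaling. It was 0.24 with reads outside RNA5-8S5 as the total and 0.69 under median-ratio scaling, which is explained below. LD was 4.87-fold higher than HD (3.78 to 6.37).

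TPM1, on chromosome 15, encodes alpha-tropomyosin, whose long isoforms are a hallmark of stress fibres. It measured 823 TPM in LD (785 to 863), 648 under IL-6 (607 to 691), 417 under IL-8 (385 to 451), 470 in RM (441 to 500) and 257 for HD (201 to 324). All other libraries lay below LD, and IL-8 and RM, whose intervals overlapped, were the lowest at low density. LD was 1.97-fold higher than IL-8 (1.80 to 2.16) and 1.75-fold higher than RM (1.62 to 1.89). On the log2(TPM + 1) scale the difference of IL-8 from LD was -0.98, just short of the 1 log2 unit counted here as a change. Median-ratio scaling divides each library by the median ratio of its genes to their mean over libraries. With it, TPM1 was at -0.57 under IL-8, and at -0.20 in RM in place of -0.81.

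TPM3, on chromosome 1, and TPM4, on chromosome 19, encode mainly short cytoplasmic tropomyosins. TPM3 was at 573 TPM in LD (551 to 595), 455 under IL-6, 422 under IL-8, 365 in RM (347 to 383) and 106 for HD (89.0 to 126). TPM4 was at 586 TPM in LD (561 to 611), 531 under IL-6, 423 under IL-8, 304 in RM (287 to 323) and 173 for HD (135 to 219). Both genes had the same order, LD above IL-6, IL-8, RM and HD, and neighbours in it were separated beyond their intervals except IL-6 and IL-8 for TPM3. For TPM4 the level in LD was 1.92-fold that in RM (1.79 to 2.07), and for TPM3 it was 1.57-fold (1.47 to 1.67). Against LD, TPM4 had a log2 difference of -0.14 under IL-6, -0.47 under IL-8 and -0.94 in RM. Under median-ratio scaling TPM4 was at -0.13, -0.06 and -0.34 in the same libraries, and TPM3 at -0.32, -0.03 and -0.04. The order given above was not kept under that scaling.

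The make-up of the tropomyosin pool does not change when each library is scaled by 1 factor. TPM2 held 36.0% of the tropomyosin TPM in LD, 36.6% under IL-6, 41.3% under IL-8, 50.8% in RM and 29.9% for HD. RM therefore had the highest TPM2 share of the 5 libraries and HD the lowest. TPM1 held 26.6% in LD, 25.2% under IL-6, 19.4% under IL-8, 20.3% in RM and 33.6% for HD. TPM4 held 18.9% in LD, 20.6% under IL-6, 19.7% under IL-8, 13.1% in RM and 22.6% for HD, so RM was the lowest library for TPM4. TPM3 stayed between 13.9% (HD) and 19.6% (IL-8). The ratio of TPM2 to TPM4 was 1.90 in LD (1.78 to 2.02), 1.77 under IL-6 (1.63 to 1.93), 2.10 under IL-8 (1.93 to 2.28), 3.87 in RM (3.59 to 4.18) and 1.32 for HD (0.922 to 1.88). RM stood clear of the other 4 libraries in this ratio. The ratio of TPM2 to TPM1 was 1.35 in LD (1.26 to 1.44), 1.45 under IL-6, 2.13 under IL-8 (1.92 to 2.35), 2.51 in RM (2.32 to 2.71) and 0.888 for HD (0.622 to 1.27), with IL-8 and RM above the other libraries. Between TPM2 and TPM3 the ratio was 1.94 in LD, 2.07 under IL-6, 2.10 under IL-8, 3.23 in RM (3.02 to 3.46) and 2.15 for HD (1.56 to 2.93).

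**Figure D2:**
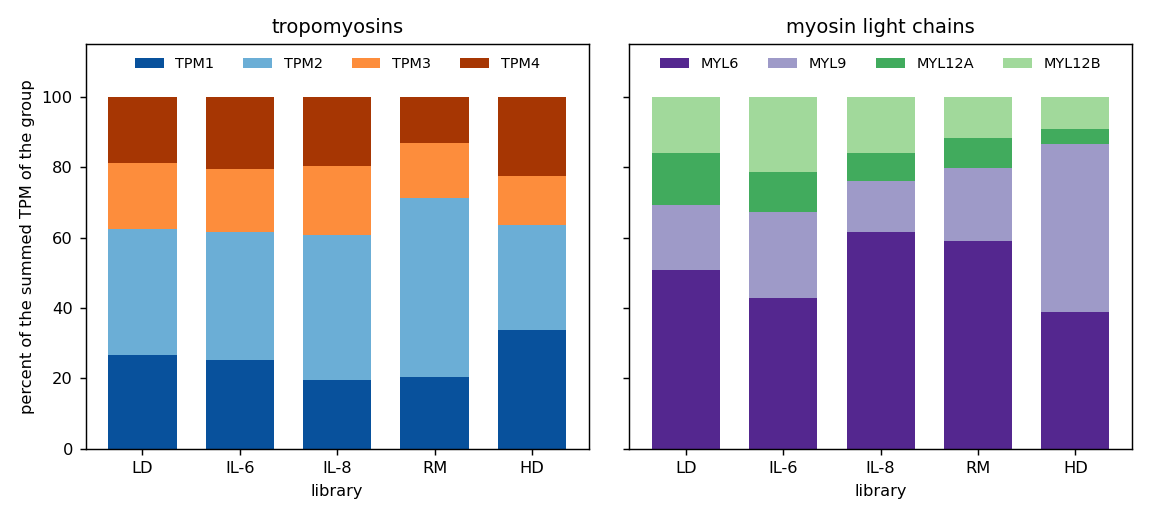
Percent of the summed TPM held by each tropomyosin gene (left) and each myosin light chain gene (right) in the 5 libraries, with each bar adding to 100%. TPM2 takes 50.8% of the tropomyosin pool in RM against 36.0% in LD, and MYL9 takes 47.8% of the light chain pool in HD against 18.5% in LD.

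Set against LD, the HD shares of TPM1, TPM3 and TPM4 came out differently by TPM and by reads. The TPM credited per read, relative to LD and to the median of 6526 genes, was 0.934 to 1.05 for all 10 genes under IL-6, IL-8 and RM. In HD it was 1.30 for TPM1, 0.615 for TPM3 and 1.52 for TPM4, and 0.949 to 1.08 for the other 7 genes. The 5th and 95th percentiles of the 6526 genes in HD were 0.609 and 1.65, so all 10 genes lay between them. Why TPM1, TPM3 and TPM4 stood apart from the other members was not tested. By reads, TPM3 made up 39.3% of the tropomyosin reads in HD (34.0 to 44.7%) and 28.9% to 33.5% in the low-density libraries. HD also had 116 reads on TPM3P9, a pseudogene of TPM3, close to the 132 reads on TPM3 itself, against 6 to 31 reads on TPM3P9 elsewhere. Windows of 50 bases in the GENCODE 29 coding transcripts of these genes were sought in transcripts of other genes, coding or not. Of the TPM3 windows 5.50% also occurred there, and of the TPM4 windows 11.7%, against 1.20% for TPM1 and none for TPM2.

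MYL6, on chromosome 12, encodes the essential light chain of non-muscle and smooth muscle myosin and was the most abundant member in every library except HD, where MYL9 was. Its level was 1537 TPM in LD (1461 to 1616), 1082 under IL-6 (1006 to 1163), 2149 under IL-8 (2044 to 2258), 2574 in RM (2473 to 2677) and 611 for HD (500 to 740). All 5 intervals were apart, with RM the highest library, IL-6 the lowest at low density and HD the lowest of all. RM was 1.67-fold above LD (1.57 to 1.79) and IL-8 was 1.40-fold above LD (1.30 to 1.50), and both differences kept their sign under each of the 7 other settings for unit, scaling and pseudocount. LD was 1.42-fold above IL-6 (1.30 to 1.55). Among the 6757 genes with a mean of at least 20 reads, 87.1% had a smaller difference from LD than MYL6 in RM, 80.7% under IL-8 and 20.2% under IL-6.

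MYL6B, which encodes a second essential light chain of non-muscle myosin, had the same highest and lowest libraries at low density and is given beside MYL6 because 45 of the 2685 MYL6 windows of 50 bases, or 1.68%, also occur in it. It had 197 reads in LD, 90 under IL-6, 146 under IL-8, 385 in RM and 40 for HD. Its level was 151 TPM in LD, 96.9 under IL-6, 147 under IL-8, 305 in RM and 179 for HD. The log2 difference of RM from LD was 1.01 for MYL6B, past the line of 1 unit, and 0.74 for MYL6.

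MYL9, the regulatory light chain that dominates in smooth muscle and in contractile fibroblasts, was at 562 TPM in LD (525 to 602), 620 under IL-6 (573 to 671), 510 under IL-8 (469 to 554), 906 in RM (858 to 955) and 753 for HD (645 to 874). RM was the highest library and HD the next, with overlapping intervals, IL-8 was the lowest, and the interval of LD overlapped those of IL-6 and IL-8. The RM level was 1.61-fold that of LD (1.48 to 1.76). MYL9 was the only one of the 10 genes with a higher TPM in HD than in LD, by 1.34-fold (1.13 to 1.58), but this sign turned when reads outside RNA5-8S5 were used as the total, with a log2 difference of -0.37 in place of 0.42.

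MYL12A measured 448 TPM in LD (411 to 486), 285 under IL-6 (251 to 323), 280 under IL-8 (247 to 317), 376 in RM (343 to 411) and 67.4 for HD (37.7 to 111), the last from 15 reads. MYL12B measured 486 TPM in LD (448 to 526), 539 under IL-6, 554 under IL-8 (507 to 603), 511 in RM and 144 for HD (97.8 to 204), the last from 31 reads. By TPM, MYL12B varied little at low density, where its lowest and highest libraries had overlapping intervals and a ratio of 1.14 (1.01 to 1.28). MYL12A was clearly lower by TPM under IL-6 and IL-8 than in LD. Under median-ratio scaling the log2 differences of MYL12B from LD were 0.16 under IL-6, 0.60 under IL-8 and 0.68 in RM. Those of MYL12A were -0.64, -0.26 and 0.35 in the same libraries. Both of these genes encode the ubiquitous regulatory light chains of non-muscle myosin. LD was 1.57-fold higher than IL-6 (1.35 to 1.83) and 1.60-fold higher than IL-8 (1.38 to 1.86) for MYL12A.

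The ratio between the regulatory light chains set HD apart. MYL9 held 37.6% of their TPM in LD, 42.9% under IL-6, 37.9% under IL-8, 50.5% in RM and 78.1% for HD. The share by reads, unlike that by TPM, does not depend on how reads were divided between MYL12A and MYL12B. By reads it was 41.4% in LD (39.2 to 43.6%), 46.7% under IL-6 (44.0 to 49.5%), 42.2% under IL-8 (39.5 to 44.9%), 55.8% in RM (53.8 to 57.7%) and 79.1% for HD (73.1 to 84.3%). HD was the highest library and RM the next, each clear of the rest. The ratio of MYL9 to MYL12A was 1.26 in LD (1.13 to 1.40), 2.18 under IL-6 (1.87 to 2.53), 1.82 under IL-8 (1.57 to 2.12), 2.41 in RM (2.17 to 2.68) and 11.2 for HD (6.59 to 20.4). Against MYL12B, MYL9 stood at 1.16 in LD (1.04 to 1.29), 1.15 under IL-6, 0.921 under IL-8 (0.816 to 1.04), 1.77 in RM (1.61 to 1.95) and 5.23 for HD (3.56 to 7.94). Smooth muscle is a tissue with much MYL9. Of 6 smooth muscle markers, 5 had reads in HD and 2 to 4 in each low-density library, with a summed TPM of 88.9 in HD and 103 to 249 elsewhere. SMTN made up most of these sums, with 51.2 TPM in HD and 94.4 to 223 elsewhere. MYH11 went the other way, with 28.9 TPM from 26 reads in HD and 0 to 1.88 TPM elsewhere, as did LMOD1, with 4.41 TPM from 4 reads in HD and 0 elsewhere, and CNN1 was at 0 in HD. The part of such RNA in the MYL9 values was not tested.

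MYH9, on chromosome 22, encodes the heavy chain of non-muscle myosin IIA, the isoform of most migrating cells. It was the most deeply counted member, with 6050 reads in LD and 159 in HD. Its level was 567 TPM in LD (552 to 581), 442 under IL-6 (427 to 458), 510 under IL-8 (495 to 526), 404 in RM (392 to 416) and 88.8 for HD (75.5 to 104). Every interval was apart from the others, with LD the highest and RM the lowest library at low density. LD was 1.40-fold above RM (1.35 to 1.46), but this difference of -0.49 became 0.12 under median-ratio scaling, which divides each library by the median ratio of its genes to their mean over libraries. LD was 6.38-fold above HD (5.45 to 7.52), and this direction held under every setting.

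MYH10, on chromosome 17, encodes the heavy chain of non-muscle myosin IIB, which is abundant in neurons and many fibroblasts. It had 54 reads in LD, 52 under IL-6, 22 under IL-8, 76 in RM and 8 for HD, or 4.95 TPM (3.72 to 6.45), 6.94 (5.18 to 9.10), 2.71 (1.70 to 4.10), 7.19 (5.67 to 9.01) and 4.27 (1.84 to 8.41). The counts were low throughout, IL-8 lay below IL-6 and RM beyond the intervals, and HD overlapped all the others. MYH9 supplied 99.1% of the heavy chain TPM in LD, 98.5% under IL-6, 99.5% under IL-8, 98.2% in RM and 95.4% for HD. MYH10 was also the only member outside the abundant genes. The other 9 exceeded at least 98.1% of the 21163 compared genes by TPM in each low-density library and at least 90.3% in HD, while MYH10 exceeded 61.5% to 75.6% at low density and 23.8% in HD.

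**Figure D3:**
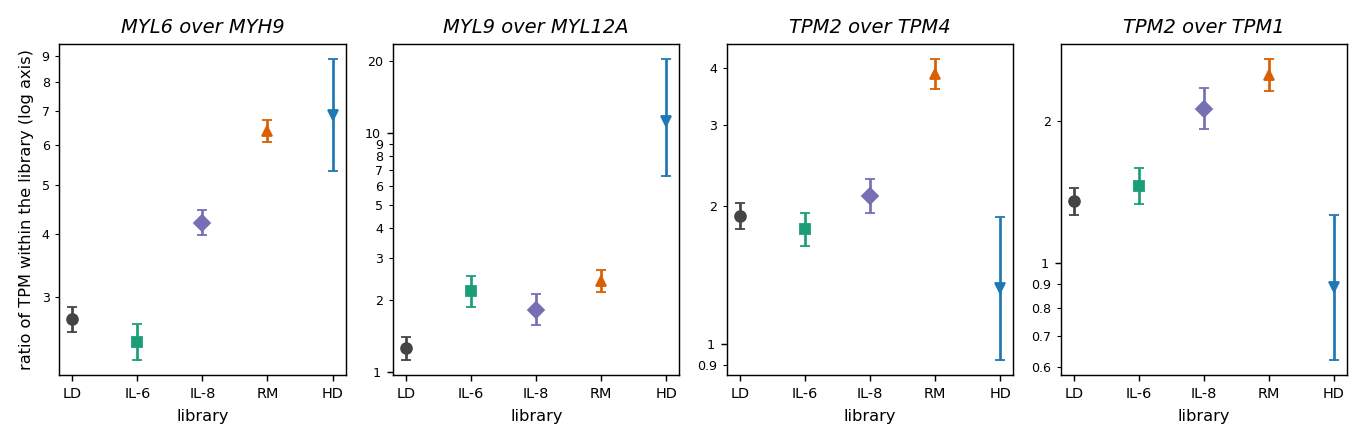
Ratio of TPM between 2 genes of the same library (log axes that do not start at 0 and differ between panels), with 95% counting intervals, in the 5 libraries. MYL6 over MYH9 is 6.38 in RM and 2.71 in LD, MYL9 over MYL12A reaches 11.2 in HD, and TPM2 over TPM4 is highest in RM at 3.87.

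Light chains and heavy chains, which assemble in a fixed proportion, did not keep a fixed ratio of transcripts. Per TPM of heavy chain there were 5.31 TPM of light chain in LD, 5.62 under IL-6, 6.81 under IL-8, 10.6 in RM and 16.9 for HD. RM and HD had the highest values, and LD the lowest. MYL6 over MYH9 was 2.71 in LD (2.56 to 2.87), 2.45 under IL-6 (2.26 to 2.65), 4.21 under IL-8 (3.97 to 4.46), 6.38 in RM (6.06 to 6.70) and 6.89 for HD (5.33 to 8.87). The RM and HD intervals overlapped and both lay above those of the other libraries. RM was thus 2.35 times LD in this ratio, a value that scaling each library by 1 factor does not alter. Quantile scaling is not of that kind. In LD, MYL6 was credited with 1.01 TPM per read and MYH9, a longer transcript, with 0.0937. Whether the libraries differed in a way that depends on transcript length was not tested. Tropomyosin per heavy chain varied less, with 5.41 in LD, 5.73 under IL-6, 4.19 under IL-8, 5.64 in RM and 8.23 for HD.

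Across the 10 genes, none differed by at least 1 log2 unit from LD under IL-6, IL-8 or RM. In IL-6, 9.84% of the 21163 compared genes were higher by that much and 7.47% lower, and among genes with a mean of at least 20 reads 8.15% were higher and 7.3% lower. In IL-8 the shares were 7.99% higher and 16.4% lower of all compared genes, and 9.69% higher and 21% lower of the well-counted genes. In RM they were 6.44% higher and 20.4% lower of all compared genes, and 9.59% higher and 29% lower of the well-counted genes. The absence of members past the line is thus read against a background of 15.5% to 38.6% of well-counted genes past it in either direction. That background was not matched for level, and all members but MYH10 were among the most abundant genes at low density. Smaller differences were resolved by the counts, since the interval of the ratio to LD excluded 1 in 7 of 10 genes under IL-6, all lower, in 9 of 10 under IL-8, 2 higher and 7 lower, and in 8 of 10 in RM, 3 higher and 5 lower.

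The median of the 10 log2 differences was -0.29 under IL-6, -0.38 under IL-8 and -0.09 in RM, beside -0.01, -0.33 and -0.49 for the well-counted genes. Measured against these medians, the members stood at -0.28 under IL-6, -0.05 under IL-8 and 0.40 in RM. In RM, 6 of the 10 lay above the median of well-counted genes, and under IL-6 3 of 10 did. Median-ratio scaling multiplies all TPM of a library by 1 factor, which relative to LD was 0.41 on the log2 scale under IL-8, 0.61 in RM and 0.01 under IL-6. Low genes moved by less on the log2(TPM + 1) scale, such as MYH10 from -0.68 to -0.36 under IL-8. Under it MYL6 (1.35) and MYL9 (1.29) passed 1 log2 unit in RM, where 18.4% of well-counted genes were higher by as much. The signs of TPM2, MYL9 and MYH9 under IL-8 and of MYL12A and MYH9 in RM turned under that scaling, while those of the other 7 genes under IL-8 and of the other 8 genes in RM did not.

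**Figure D4:**
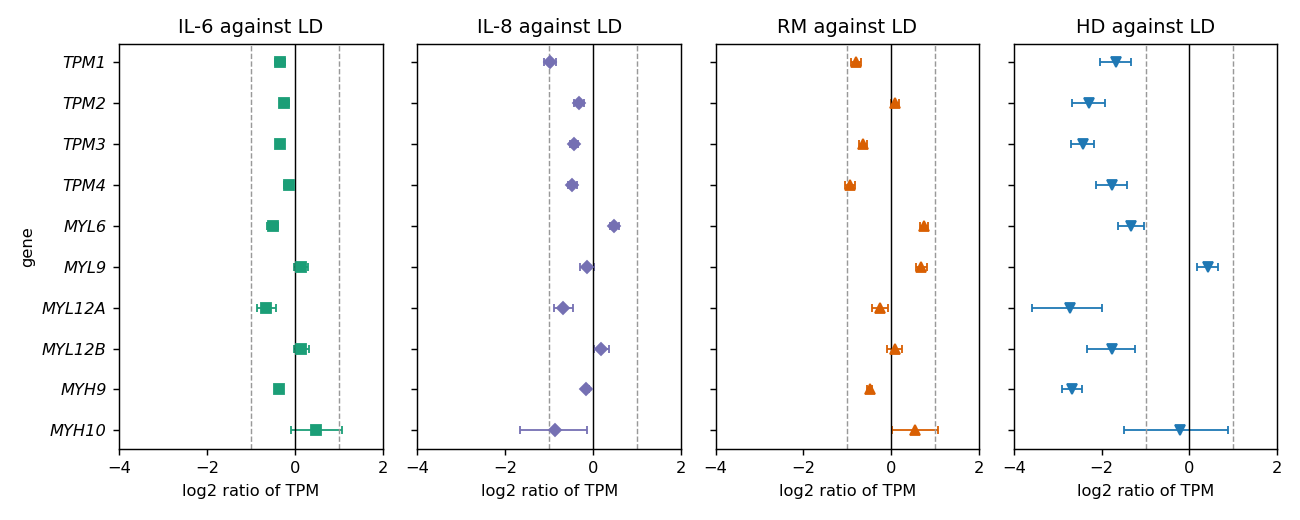
Log2 ratio of TPM to LD for each gene in the 4 other libraries, with 95% counting intervals and dashed lines at 1 log2 unit. No gene passes the lines at low density by the log2(TPM + 1) difference, while 8 of 10 do so downwards in HD, and the signs of TPM2, MYL9 and MYH9 under IL-8, of TPM2, MYL12A and MYH9 in RM and of MYL9 and MYH10 in HD turn under at least 1 other scaling or unit.

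Set beside the single cytokines, RM carried more MYL6 than IL-6 did, by 2.38-fold from 1082 to 2574 TPM. This log2 difference of 1.25 was the only one of the 10 past 1 unit between RM and IL-6, where 9.96% of well-counted genes were higher by as much. Between RM and IL-8, MYH10 alone passed the line, with 1.14 from 22 and 76 reads, against 14.6% of well-counted genes. MYL9 was 1.46-fold higher in RM than under IL-6 and 1.78-fold higher than under IL-8. TPM4 was lower in RM than in both, with log2 differences of -0.80 and -0.47. The medians of the well-counted genes in these 2 comparisons were -0.52 and -0.15. Under median-ratio scaling TPM4 differed from LD by -0.34 in RM, -0.13 under IL-6 and -0.06 under IL-8, so it was still lowest in RM but by less. The comparisons of RM with the single cytokines share the RM library, as those with LD share LD.

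In HD, 8 of the 10 genes fell by at least 1 log2 unit from LD and none rose by as much. Of all compared genes 61.9% were higher and 17.9% lower by that line, and of the well-counted genes, to which all 10 belong, 26.6% were higher and 41.7% lower. Neither background was matched for level, and all members but MYH10 were among the most abundant genes at low density. The abundant genes ACTB, ACTG1, TAGLN2 and RHOC, described below, had -2.26, -2.35, -3.33 and -2.74 in HD, and CALM3 had -0.65. The log2 differences were -2.71 for MYL12A, -2.66 for MYH9, -2.42 for TPM3, -2.28 for TPM2, -1.75 for TPM4, -1.75 for MYL12B, -1.67 for TPM1 and -1.33 for MYL6. MYH10 had -0.17, with an interval of its ratio from 0.355 to 1.82, and MYL9 had 0.42, and the signs of these last genes depended on the unit or scaling. The median member stood at -1.75, that of the well-counted genes at -0.59 and that of all compared genes at 1.86. The compared genes outside the well-counted set all had a mean under 20 reads. With CPM over all reads MYL6 was at -0.90 and so short of the line, which left 7 genes lower, and under quantile scaling MYH10 was at -2.24, which made 9. The place of the members among all well-counted genes ranged from 11.2% of genes below MYL12A to 66.5% below MYL9. The 828 reads on the 10 genes in HD make these values the least precise of the 5 libraries.

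**Figure D5:**
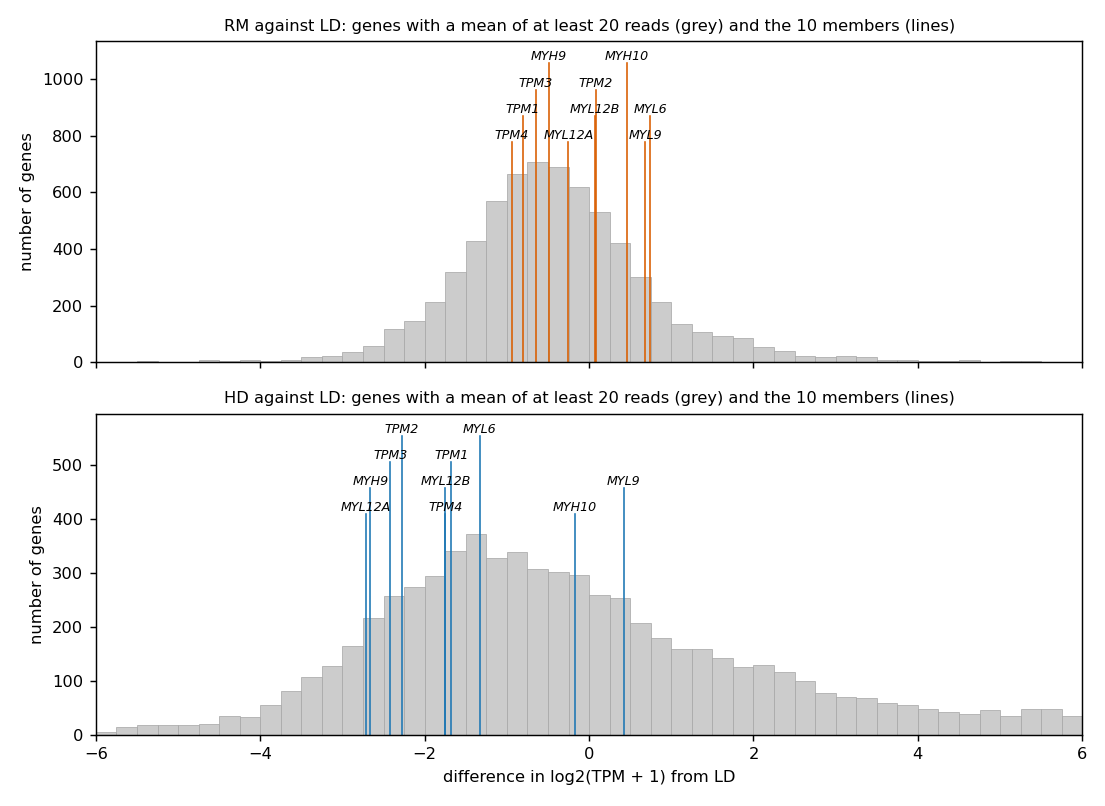
Number of genes by difference in log2(TPM + 1) from LD for the 6757 genes with a mean of at least 20 reads (grey, axis cut at 6 units either way), with the 10 members as lines, in RM (upper) and HD (lower). In RM the members spread from -0.94 (TPM4) to 0.74 (MYL6) around a median of all these genes at -0.49, and in HD 8 of 10 lie below the median of -0.59, whereas MYL9 and MYH10, whose signs depend on the unit or scaling, lie above it.

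The upstream control of myosin was read from 21 genes that set the phosphorylation of the regulatory light chains, all of them compared. Past the line of 1 log2 unit, 1 of these was lower under IL-6, and 3 were lower and 1 higher under IL-8. RM had 6 lower and 1 higher, and HD had 12 lower and 3 higher. As shares of the 21163 compared genes, 7.47% were lower under IL-6, 16.4% under IL-8, 20.4% in RM and 17.9% in HD. Well-counted genes made up 20 of the 21 regulators, with 6 lower in RM and 12 lower in HD. Their matching background is the well-counted genes, of which 29% fell by the line in RM and 41.7% in HD. Rises of that size took in 61.9% of compared genes in HD, 6.44% in RM and 7.99% under IL-8. For HD, 26.6% of well-counted genes rose by as much, beside 2 of these 20. Under median-ratio scaling the counts of regulators became 1 lower and 1 higher under IL-8 and 1 lower and 4 higher in RM. The gene with the largest positive difference in RM was ARHGEF2, an exchange factor that activates RhoA, at 64.6 TPM in LD, 94.5 under IL-6, 51.8 under IL-8, 240 in RM and 11.4 for HD, a log2 difference of 1.88 in RM. RHOA itself, the GTPase above ROCK, was at 382 TPM in LD, 339 under IL-6, 224 under IL-8, 182 in RM and 43.6 for HD, a difference of -1.06 in RM that was -0.46 under median-ratio scaling. RHOC, the most abundant of the list, was at 1152 TPM in LD, 1193 in RM and 171 for HD. ROCK2 had -1.20 and CALM2, a calmodulin gene, had -1.28 under IL-8. Under median-ratio scaling they were at -0.82 and -0.87 there, short of the line. ARHGEF11 (-1.13 under IL-6 and -2.34 under IL-8) and ARHGEF12 (-1.64 in RM) are further RhoA exchange factors, and CIT, citron kinase of the cleavage furrow, was higher under IL-8 by 1.21. The remaining changed genes at low density were RHOB (-1.13), CDC42BPA (-1.05) and CDC42BPB (-1.28) in RM, along with CALM2 (-1.30). Under median-ratio scaling they were at -0.58, -0.61, -0.75 and -0.69 in RM, all short of the line. The differences given above for ARHGEF2, ARHGEF11, ARHGEF12 and CIT stayed past it. CALM3 did not pass the line in any library, with 0.57 under IL-8 and -0.65 in HD.

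Of 20 filament and stress fibre partners, 19 were compared. None passed the line under IL-6, and 3 were lower under IL-8. RM had 2 higher and 4 lower, and HD had 4 higher and 12 lower. The 4 lower of 19 in RM are near the 20.4% of all compared genes that were lower there, and HD had 17.9% of all compared genes lower and 41.7% of the well-counted ones. Under IL-8 16.4% of all compared genes were lower, and 6.44% were higher in RM and 61.9% in HD. Under median-ratio scaling 1 partner was lower under IL-8, and RM had 3 higher and 2 lower. TAGLN, an actin bundling protein of smooth muscle and stress fibres, was at 819 TPM in LD, 673 under IL-6, 617 under IL-8, 255 in RM and 73.3 for HD. The log2 difference of RM from LD was -1.68 for TAGLN, -1.48 for VCL, the vinculin of focal adhesions, and -1.52 for ANLN, the anillin of the contractile ring, and under median-ratio scaling VCL was at -0.89 and no longer past the line. CNN3, a calponin, was higher in RM by 1.17. In IL-8 the well-counted genes past the line were TMOD3, which caps filament ends (-1.18), and PDLIM5 (-1.19). Both fell short of the line under median-ratio scaling, at -0.83 and -0.82, where SVIL, a low-count gene named after its values were seen, was the 1 still lower (-1.30). The 3 most abundant partners, TAGLN2, ACTN4 and FLNA, had differences from LD between -0.33 and 0.29 in the other low-density libraries, and had -3.33, -1.71 and -2.50 in HD.

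Many of the genes above are textbook targets of SRF, a transcription factor driven by the actin-sensing coactivators MKL1 and MKL2. SRF was at 31.0 TPM in LD, 58.0 under IL-6, 69.0 under IL-8, 138 in RM and 18.6 for HD, and its log2 difference from LD was 0.88 under IL-6, 1.13 under IL-8 and 2.12 in RM. RM was the highest of the 5 libraries and each cytokine library lay above LD. Of the 13 compared genes of the list of SRF, its coactivators and targets, 1 was higher and 6 were lower in RM by at least 1 log2 unit, 2 were higher and none lower under IL-8, and 2 were higher and 9 lower in HD. Among all compared genes 6.44% were higher and 20.4% lower in RM, where 29% of the well-counted genes were lower, 7.99% were higher under IL-8, and 17.9% were lower in HD. Rises by the line in HD took in 61.9% of compared genes. The list held 11 well-counted genes, of which 6 fell by the line in RM. For HD, 8 of these 11 fell and 1 rose, beside 41.7% and 26.6% of well-counted genes at large. The 6 that fell in RM were MKL1 (-1.16), ACTA2 (-1.76), CTGF (-1.46), FHL2 (-1.24), VCL and TAGLN. Under median-ratio scaling 2 of the list were lower and 3 higher there. ACTA2, smooth muscle actin, was higher under IL-8 by 1.40. The cytoplasmic actins ACTB and ACTG1 differed from LD by -0.40 to 0.05 at low density and by -2.26 and -2.35 in HD. VCL, TAGLN, CNN1 and CNN2 stand in both this list and that of the filament partners.

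The CArG box is the sequence that SRF binds, and the members' promoters were searched for it because tropomyosin and myosin light chain genes are among its known targets. Promoters of 300 bases, 250 before and 50 after each start, were matched in RefSeq (GRCh38.p14) for 9 of the 10 genes, 17 promoters in all, and MYL9 had no entry. The box reads the same on both strands and was searched without mismatch. It was found in 1 of the 17 promoters, a TPM4 promoter, and in 1.29% of all 35116 promoters of that length. The TPM4 box lay 173 to 164 bases before the start. The following 90 bases of the plus strand, at chr19:16067325-16067414, hold it in capitals, and lie in an intron of 1 TPM4 transcript of GENCODE 29 and in no exon.
TPM4: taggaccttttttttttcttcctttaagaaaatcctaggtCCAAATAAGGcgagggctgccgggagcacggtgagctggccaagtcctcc

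This window is 1 of 3 TPM4 promoters, and the deposited values are sums over all transcripts of the gene, so they do not separate the starts.

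Most muscle-type relatives had few reads at low density. Of 21 muscle-type and other myosin II chain genes outside the 10, 2 had a mean of at least 20 reads, MYL6B and MYH15. Of the 19 compared genes, 14 had a level in HD above that in LD by 1 log2 unit or more and 1 was lower, with a median difference of 2.67, beside the 61.9% of all compared genes that were higher. MYH7B had 49 reads in HD and 2 to 6 elsewhere, and MYL5 had 42 reads in RM, 18 in HD and 2 to 8 elsewhere. MYH15 had 33 to 102 reads at low density and 2 in HD.

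Genes with a course like that of the members were sought over the 4 differences from LD, as the root mean square distance to the median of the 10 genes among 6747 other well-counted genes. The nearest were PAGE5 at 0.13 log2 units, TMSB10 at 0.13, WDR34 at 0.14, KDM5B at 0.14 and SSR2 at 0.15. The members themselves lay from 0.28 (TPM2) to 1.18 (MYL9) from their own median. The 5 genes were picked as the nearest, so their smaller distances say nothing about the members. The distance covers 4 values that share the LD library.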

How the data were processed

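Each of the 5 libraries, 1 per condition, was deposited as a table of genes with 2 values. The authors deposited a read count per gene in whole numbers without normalization, and a TPM per gene, estimated after alignment. The submitters' processing notes name Bowtie2 2.3.1, RSEM 1.2.25 and CASAVA 1.4, and the builds GRCh37 and hg19. Whether the counts are rounded RSEM estimates, how reads that fit several genes were divided, and the annotation are not given in the sources used here. Reads were single-ended, 50 bases long.

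From these tables, TPM was rescaled to 1000000 per library (deposited sums were 934821 to 978521) and put on a scale of log2(TPM + 1), where changes of low genes come out too small. The 21163 genes that reached 1 TPM in any library were kept, and a gene was called when its difference was 1 log2 unit or more. The test across conditions that the study describes needs replicates and was not run. Levels have exact 95% Poisson intervals, shares have exact Clopper-Pearson intervals, and ratios of counts have exact conditional binomial intervals carried to TPM. The smallest number of reads told from 0 was set at 3. No member was at 0. Members and lists were chosen with earlier results of these data known. The genes named are the members, the 3 most abundant genes of each of 4 lists, the well-counted list genes (mean of at least 20 reads) changed at low density, and the 5 nearest by distance. Named beyond that rule, after their values were seen, are MYH15, TPM3P9, SVIL, CNN1, CNN2 and the markers THY1, EPCAM, CDH1, KRT19, SMTN, MYH11, LMOD1, MYL2 and MYLPF, and MKL2 is named as background only. Alternatives were pseudocounts of 0.1 and 5, CPM with and without RNA5-8S5, median-ratio and quantile scaling, TPM as deposited and a threshold of 2 log2 units. The scripts were tested on simulated data. They ran under Python 3.11.15 with scipy 1.17.1, numpy 2.4.6, matplotlib 3.10.9 and pandas 2.3.3. The cell-free collagen control that the series mentions was not analysed here.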

Additional observations from a re-analysis of the deposited data

How the results depend on the processing

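No paired analysis was possible because each condition is 1 library, and no library could be left out of a group for the same reason. The count of members past the threshold and the median member difference kept their value within the limits set for IL-6 under all alternatives. In IL-8, 1 member, TPM1, was lower by the threshold with CPM, and the median was 0.028 under median-ratio scaling. In RM the median was 0.091 with CPM outside RNA5-8S5 and 0.52 under median-ratio scaling, where 2 members were higher by the threshold. In HD the median was -2.57 with CPM outside RNA5-8S5, and 4 members were lower by 2 log2 units, while at 1 unit CPM gave 7 and quantile scaling 9 members lower. Of 70 single-member values per comparison, 14 moved beyond their counting interval under IL-8, 18 each in RM and HD, and 0 under IL-6, and none of those past the threshold turned in sign.

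Shares by reads, which are not corrected for length, differed from shares by TPM. For TPM1 they were 21.4%, 19.9%, 15.0%, 18.1% and 21.4%, from LD through the cytokine libraries and RM to HD. For TPM2 they were 21.5%, 22.0%, 24.7%, 33.3% and 18.5% in the same order, so RM stayed the highest. For TPM3 they were 31.3%, 29.8%, 33.5%, 28.9% and 39.3%, and for TPM4 25.8%, 28.3%, 26.9%, 19.7% and 20.8%. HD was thus below LD for TPM4 by reads and above it by TPM, and for TPM3 above LD by reads and below it by TPM. MYL6 held 43.2%, 35.6%, 54.2%, 50.1% and 32.3% of the light chain reads. Depth limits HD most, where MYH10 had 8 reads and MYL12A 15.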
